A study of Homo sapiens with 18 samples.

Results

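OCSTAMP (ENSG00000149635) and DCSTAMP (ENSG00000164935) encode the osteoclast and the dendritic cell stimulatory and specific transmembrane proteins. They are 2 of the 40184 genes in the deposited RNA-seq table, found there by their Ensembl IDs. The table covers 18 libraries from 3 established human acute myeloid leukaemia cell lines, with 3 biological replicates in each of 6 groups. Molm-14 and MV4-11 carry the genotype FLT3-ITD, an internal tandem duplication that activates the receptor tyrosine kinase FLT3, and SKNO-1 carries KIT N822K, an activating change in the receptor tyrosine kinase KIT. Each line received either the vehicle DMSO or RMC-4550 at 500 nM, and cells were collected after 24 h. RMC-4550 is an allosteric inhibitor of SHP2, the phosphatase that passes receptor signals on to RAS and ERK. SKNO-1 alone was grown with human GM-CSF, at 10 ng/mL, in both of its groups, so line, genotype and growth factor cannot be told apart. Every group is 1 cell line, so the replicates are cultures and not patients. The lines are listed below in the order Molm-14, MV4-11, SKNO-1 unless named one by one. The pair was selected on its measured levels in these libraries and on its difference between RMC-4550 and DMSO. For that reason the levels, the drug responses and the differences between lines are given for both genes as descriptions without a p-value.

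Both proteins span the membrane several times and are needed when mononuclear precursors fuse into osteoclasts, the multinucleated cells that resorb bone, and into the giant cells that form around foreign bodies. Precursors switch the 2 genes on after M-CSF, acting through CSF1R, and RANK ligand, acting through RANK (TNFRSF11A), induce the transcription factor NFATC1. Fusion in mice fails when either gene is removed. DCSTAMP was first described in dendritic cells, which belong to the same myeloid branch.

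In the GENCODE 29 annotation (GRCh38, the build named in the submitters' processing notes), OCSTAMP lies on chromosome 20 at chr20:46540946-46550574 on the minus strand. It has 1 transcript of 3 exons and 2043 bases, of which 1698 are coding, and no annotated gene overlaps it. DCSTAMP lies on chromosome 8 at chr8:104339087-104356689 on the plus strand, with 8 transcripts, of which 3 are coding. Its longest coding transcript has 4 exons and 1953 bases, of which 1410 are coding. The whole of DCSTAMP lies within the span of DPYS, a pyrimidine degradation gene on the opposite strand. Overlap of their exons was not examined. DPYS itself had 0 to 5 reads per library. Whether the counting used strand is not given in the sources used here.

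Levels are given as recovered reads and as CPM, which is reads scaled to the library size the authors used. Read totals ran from 17434810 to 19959917 per library. A count of 3 reads is taken as the floor. In bulk RNA, fewer cells that hold a transcript and less of it per cell cannot be told apart. The myeloid markers PTPRC, CD33, LYZ, SPI1 and ITGAM were read in all 6 groups, whereas the group means of CD14 and CD68 were at most 0.359 and 0.187 CPM. The marker MPO differed between lines. Its group means were 317 CPM with DMSO and 396 with RMC-4550 in SKNO-1, and 1.44 to 3.58 CPM in Molm-14 and MV4-11. RUNX1T1, the partner of RUNX1 in the fusion gene that SKNO-1 is known for, had 237 to 306 reads in the SKNO-1 libraries and at most 1 read in each other library. The mitochondrial share of reads was 10.5% to 15.0% in 4 libraries and 5.07% to 7.02% in the other 14. These 4 were replicate 2 of Molm-14 with RMC-4550, replicates 1 and 3 of MV4-11 with DMSO and replicate 1 of MV4-11 with RMC-4550.

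OCSTAMP was read in every DMSO library of all 3 lines and was almost absent after RMC-4550 in Molm-14 and SKNO-1. In MV4-11 it was lower with the drug as well, but 14.8% of the DMSO level was left. DCSTAMP, its partner in osteoclast fusion, stayed between 1 and 9 reads per library in all 18 libraries.

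Without the drug, Molm-14 gave 107, 118 and 96 OCSTAMP reads in replicates 1, 2 and 3, or 5.95, 6.80 and 5.35 CPM. MV4-11 gave 130, 139 and 131 reads, or 6.995, 7.11 and 7.84 CPM. SKNO-1 gave 208, 239 and 259 reads, or 9.60, 10.97 and 12.2 CPM. SKNO-1 was thus the highest of the untreated lines, and its lowest library lay above the highest library of both FLT3-ITD lines. The group means were 10.9 ± 1.30 CPM (SD, n = 3) in SKNO-1, 7.31 ± 0.46 in MV4-11 and 6.03 ± 0.73 in Molm-14. MV4-11 and Molm-14 were neighbours in this order. Their libraries did not overlap, but the gap between 6.80 and 6.995 CPM was smaller than the spread within either line. From pooled reads, the MV4-11 level was 1.21 times that of Molm-14 (exact 95% interval 1.04 to 1.41, for counting error only). The reads come from a library amplified without molecular identifiers, so the intervals here do not cover amplification or culture differences.

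With RMC-4550, OCSTAMP in Molm-14 had 3, 2 and 2 reads, or 0.164, 0.128 and 0.113 CPM. All 3 treated libraries lay at or under the floor, and each was below every DMSO library. Pooled over the group, 321 reads with DMSO stood against 7 with RMC-4550, a level 44.4 times lower (exact 95% interval 21.3 to 111). That left 2.25% of the DMSO level (0.90% to 4.69%). In the fit across all genes the change was -5.21 on the log2 scale (SE 0.33).

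In MV4-11 the treated libraries had 18, 23 and 22 OCSTAMP reads, or 0.951, 1.16 and 1.12 CPM. These counts are well above the floor, and the treated libraries still did not overlap with the DMSO libraries. Pooled reads went from 400 to 63, a level 6.76 times lower (5.17 to 8.96), with 14.8% of the DMSO level left (11.2% to 19.3%). The log2 change was -2.74 (SE 0.33). MV4-11 with RMC-4550 was the only treated group in which each library had more than 3 reads of the gene.

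In SKNO-1 the treated libraries had 0, 1 and 1 OCSTAMP reads, or 0, 0.0464 and 0.0460 CPM. All 3 were under the floor. Pooled reads went from 706 to 2, a ratio of 354 whose exact 95% interval runs from 97.7 to 2930. Between 0.034% and 1.02% of the DMSO level was left, with a point estimate of 0.28%. The log2 change was -7.82 (SE 0.33), a value that depends on the 0.5 reads added before the logarithm because the treated group is at the floor.

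**Figure D1:**
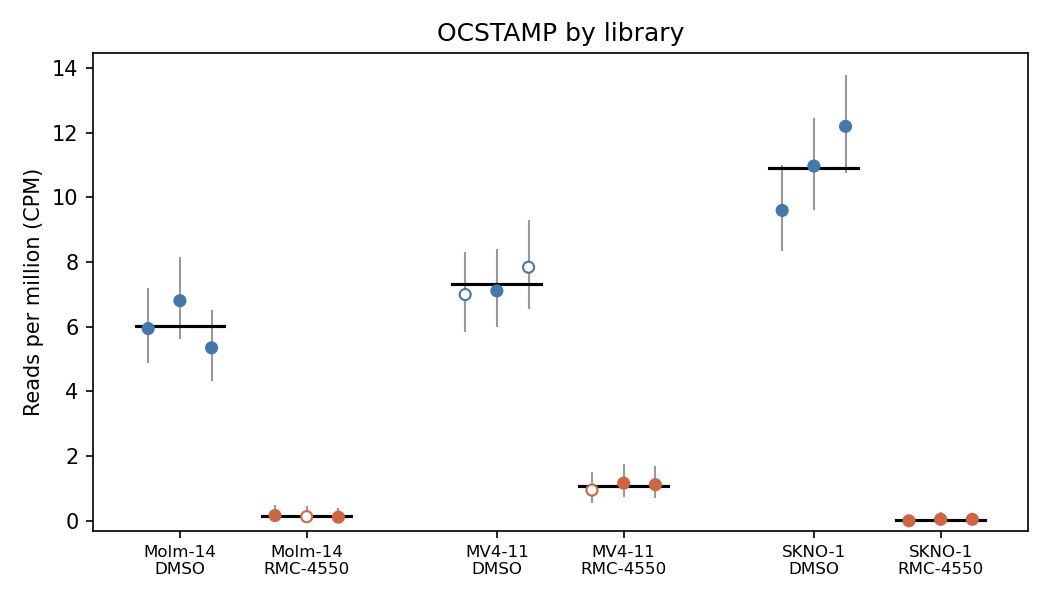
OCSTAMP level in CPM (y axis) in each of the 18 libraries, by line and treatment (x axis). Points are libraries in the order of replicates 1 to 3, grey bars are exact 95% Poisson intervals for counting error, black lines are group means, and open points mark the 4 libraries with over 10% mitochondrial reads. The DMSO libraries lie between 5.35 and 12.2 CPM, the treated MV4-11 libraries near 1 CPM and the other treated libraries at or below 0.164 CPM.

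The shares left in the 3 lines were ordered MV4-11, Molm-14, SKNO-1. The MV4-11 interval lay above the other 2, whereas the upper end in SKNO-1 (1.02%) overlapped the lower end in Molm-14 (0.90%). Among treated groups, the OCSTAMP level in MV4-11 was 7.95 times that in Molm-14 (3.64 to 20.6) and 35.0 times that in SKNO-1 (9.30 to 296). Molm-14 and SKNO-1 with the drug were neighbours that could not be separated at this depth, with a ratio of 4.40 (0.84 to 43.5). These intervals compare pooled reads, and the difference in response between lines was not tested across replicates.

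The OCSTAMP difference was of similar size without the 4 libraries with a high mitochondrial share. Without them, 16.0% of the DMSO level was left in MV4-11 (11.2% to 22.6%, 1 DMSO and 2 treated libraries) and 2.31% in Molm-14 (0.74% to 5.44%). Among the MV4-11 libraries that had the high share (2 DMSO and 1 treated), 12.9% was left (7.50% to 20.7%).

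OCSTAMP had at least 1 CPM in 3 or more libraries and entered the fit in each line, but only through its DMSO libraries in Molm-14 and SKNO-1, so a difference was built into its passing there. DCSTAMP did not pass this filter in any line. In that fit (limma, adjusted p under 0.05) 1 of the 2 genes, OCSTAMP, was called lower in each line. The background was 25.2% of the 13971 genes tested in Molm-14, 8.03% of 14739 in MV4-11 and 16.2% of 14670 in SKNO-1. Groups without overlap, with all treated libraries lower, were found for 33.1%, 13.5% and 35.4% of genes, and with all treated libraries higher for 26.9%, 11.1% and 26.6%. Nothing is read from these counts, because the gene was chosen with these contrasts known. By size, the OCSTAMP change ranked first from the largest fall in SKNO-1. It ranked 2 in Molm-14, level with the retinoic acid hydroxylase gene CYP26B1 (both -5.21). In MV4-11 it ranked 5, after LOXHD1, GPR84, ART3 and CYP26B1. On the log2(CPM + 1) scale, which damps changes of low genes, the ranks were 3, 3 and 1. Of 12792 genes tested in all 3 lines, only GPR84, a receptor for medium-chain fatty acids, had a larger fall in its least affected line (-2.82, against -2.74 for OCSTAMP).

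DCSTAMP was close to the limit of detection throughout. In Molm-14 it had 5, 5 and 4 reads with DMSO and 6, 2 and 9 with RMC-4550. The treated libraries lay on both sides of the DMSO libraries. The highest of them, replicate 3 with 9 reads or 0.509 CPM, was the highest DCSTAMP value of the series, and the lowest, replicate 2, was a library with a high mitochondrial share. Pooled reads were 14 with DMSO and 17 with the drug, so the treated level was 125% of the DMSO level with an interval from 58.2% to 275%. Without that library it was 159% (71.4% to 355%), and the 2 remaining treated libraries lay above all DMSO libraries.

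In MV4-11, DCSTAMP had 2, 2 and 1 reads with DMSO and 4, 1 and 1 with RMC-4550. The groups overlapped, and only 1 library, treated replicate 1, was above the floor. The pooled counts of 5 and 6 reads allow a treated level between 28.7% and 467% of the DMSO level. Split by mitochondrial share, the direction differed, with 249% (42.0% to 1697%) among the high libraries and 49.6% (3.59% to 684%) among the others. In SKNO-1 the gene had 2, 5 and 3 reads with DMSO and 1, 1 and 2 with the drug. The fewest DMSO reads and the most treated reads were the same number, 2. In CPM the groups just did not overlap, with 0.0923 in the lowest DMSO library and 0.0919 in the highest treated library. The pooled counts of 10 and 4 reads correspond to 39.9% of the DMSO level, and the interval of 9.13% to 138% includes no change. No change of DCSTAMP with RMC-4550 was detectable at this depth in any line.

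**Figure D2:**
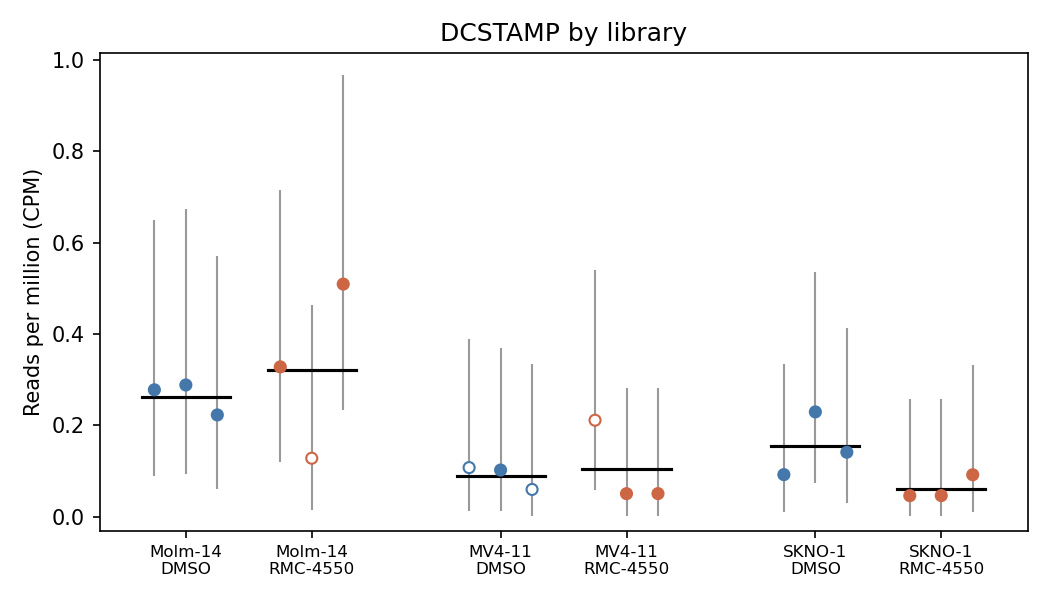
DCSTAMP level in CPM (y axis) in each library by line and treatment (x axis), with the same points, exact 95% Poisson intervals and group means as for OCSTAMP. All libraries lie at or below 0.509 CPM and the counting intervals of treated and DMSO libraries overlap in every line.

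**Figure D3:**
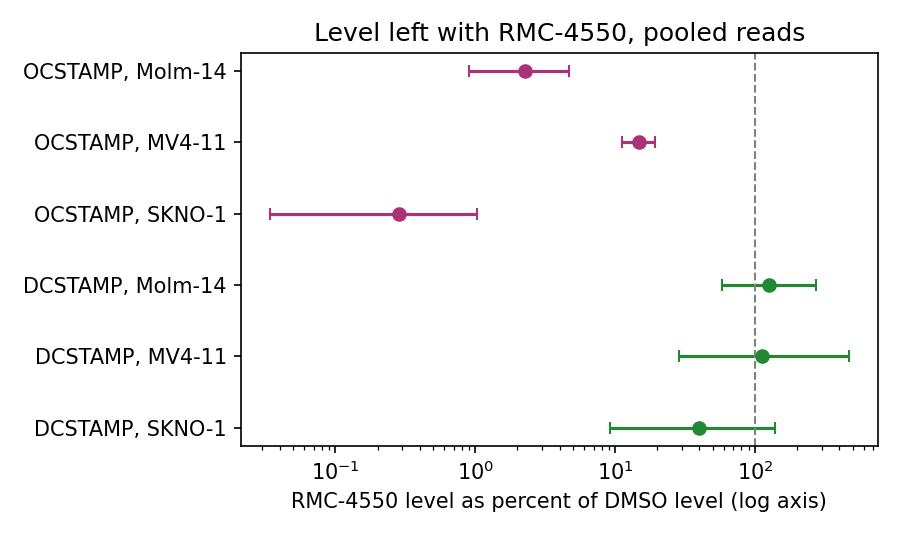
Treated level as a percent of the DMSO level (x axis, log scale) for both genes in each line, from pooled reads of 3 libraries per group. Bars are exact 95% intervals for counting error and the dashed line is no change. The OCSTAMP points lie at 0.28%, 2.25% and 14.8%, and the DCSTAMP intervals all cross the dashed line.

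Among the lines, DCSTAMP was highest in Molm-14, with a group mean of 0.263 ± 0.035 CPM (SD, n = 3) with DMSO, against 0.154 ± 0.070 in SKNO-1 and 0.090 ± 0.026 in MV4-11. No pair of untreated lines could be separated for DCSTAMP at this depth. The ratio of Molm-14 to SKNO-1 was 1.70 (0.70 to 4.28), that of MV4-11 to SKNO-1 was 0.59 (0.16 to 1.89) and that of MV4-11 to Molm-14 was 0.35 (0.098 to 1.02). With the drug, the Molm-14 level was 5.35 times that of SKNO-1 (1.74 to 21.8) and the MV4-11 level was 0.31 times that of Molm-14 (0.10 to 0.83). These intervals pool reads and cover counting error only. Of the 17 treated Molm-14 reads, 9 came from replicate 3. The treated libraries of MV4-11 and Molm-14 overlapped, with 0.211 CPM in MV4-11 replicate 1 and 0.128 CPM in Molm-14 replicate 2.

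Per kilobase of its longest coding transcript, OCSTAMP was the more abundant of the pair in every untreated line. Its mean level in CPM per kilobase with DMSO was 2.95 for Molm-14, 3.58 for MV4-11 and 5.35 for SKNO-1, where DCSTAMP stood at 0.135, 0.046 and 0.079. With RMC-4550, OCSTAMP was at 0.066 and DCSTAMP at 0.165 CPM per kilobase in Molm-14, and they were at 0.015 and 0.032 in SKNO-1, from 7 and 17 pooled reads in Molm-14 and 2 and 4 in SKNO-1, too few to order the pair. In MV4-11 OCSTAMP remained the higher, at 0.527 against 0.053.

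The genes next to OCSTAMP were not used to choose it. SLC13A3, a dicarboxylate transporter gene on the same strand, lies 7174 bases from OCSTAMP at higher coordinates in RefSeq, on its upstream side. In SKNO-1 it went from 35 to 49 reads per library with DMSO to 7 to 10 with RMC-4550, and from 1.95 ± 0.32 to 0.385 ± 0.069 CPM (SD, n = 3). This log2 change of -2.27 passed the test (SE 0.30, limma adjusted p 3.4e-05). SLC13A3 reached 1 CPM there in DMSO libraries only, so a fall was built into its passing the filter, and without a filter the limma adjusted p was 7.4e-05. In MV4-11 it fell from 31 to 36 reads to 15 to 19 reads, a log2 change of -1.08 (SE 0.30, limma adjusted p 0.024). That call did not hold without DMSO replicate 1 or 3 or RMC-4550 replicate 2 or 3, with changes from -1.08 to -0.98, with the replicate number as a block, or without a filter. In that line all 3 DMSO libraries and 1 treated library reached 1 CPM. In Molm-14 SLC13A3 had 10 to 17 reads with DMSO and 14 to 29 with the drug, overlapping, and was under the filter. OCSTAMP was therefore far lower in Molm-14 with the drug while the SLC13A3 groups overlapped there. The difference of the SLC13A3 response between SKNO-1 and MV4-11, -1.20 on the log2 scale, did not pass the test (limma adjusted p 0.21).

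ZNF334, a zinc finger gene 27387 bases from OCSTAMP on the other side and on the same strand, had 193 to 212 reads in SKNO-1 with DMSO and 235 to 240 with RMC-4550. Its log2 change of 0.23 missed the threshold (limma adjusted p 0.67), although the groups did not overlap, and it was called with the replicate number as a block. In MV4-11 it changed by -0.29 without a call (limma adjusted p 0.64), while the Molm-14 libraries had at most 1 read each. The Molm-14 libraries thus held OCSTAMP reads with almost none of ZNF334.

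The 18 libraries fall into groups by line and treatment, so likeness to the OCSTAMP pattern mainly describes the 6 group levels and is given without a p-value. Of 16261 genes compared on the log2 scale, the 5 most like OCSTAMP by Pearson correlation over 18 libraries were E2F1 (r = 0.99), UHRF1 (0.98), PGP (0.97), TIMM50 (0.97) and TOMM40 (0.97). E2F1 is a transcription factor of S phase entry, UHRF1 maintains DNA methylation at replication, PGP is a phosphoglycolate phosphatase, and TIMM50 and TOMM40 belong to the mitochondrial protein import machinery. In each of these 5 genes the treated level was nearest to the DMSO level in MV4-11 and farthest in SKNO-1. They were picked for likeness over the same libraries, so a shared order of lines follows from the choice. For TIMM50 the log2 changes in Molm-14 and SKNO-1 were close, at -0.75 and -0.79 (SE 0.075 each). In all 5 genes the sizes were far smaller than for OCSTAMP. E2F1 went from 34.1 ± 2.40 to 11.7 ± 1.01 CPM (SD, n = 3) in Molm-14, from 32.8 ± 1.05 to 19.1 ± 1.11 in MV4-11 and from 30.8 ± 1.40 to 8.50 ± 1.29 in SKNO-1. Its log2 changes of -1.55, -0.78 and -1.86 stand beside -5.21, -2.74 and -7.82 for OCSTAMP. Which genes were most like it depended on the measure: Spearman correlation shared 1 of the 5, UHRF1, and log2(CPM + 1) shared 0. DCSTAMP did not reach 10 reads in any library, so no likeness was computed for it.

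**Figure D4:**
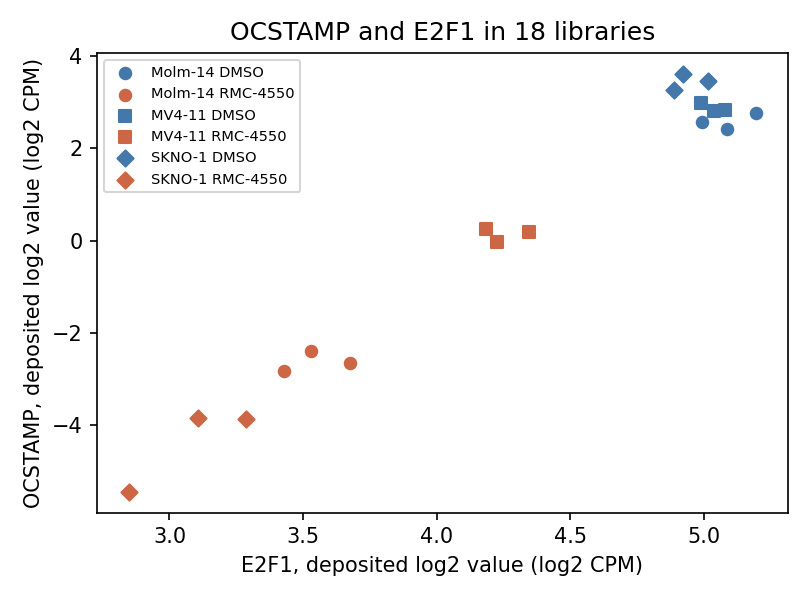
OCSTAMP against E2F1 in the 18 libraries, both as deposited log2 values (log2 CPM). Circles are Molm-14, squares MV4-11 and diamonds SKNO-1; blue is DMSO and orange RMC-4550. The DMSO libraries form 1 cluster at the upper right and each treated group sits apart, with SKNO-1 lowest on both axes.

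The genes that surround OCSTAMP and DCSTAMP in osteoclast formation were followed through 76 genes in 5 lists. With the drug, 21 of the 55 genes that could be tested in Molm-14 rose and 12 fell, against a background of 21.5% and 25.2% of all genes. For MV4-11, 5 of 56 rose and 2 fell (background 5.85% and 8.03%). For SKNO-1, 9 of 57 rose and 11 fell (background 10.8% and 16.2%). The median log2 change over the lists was 0.04, 0.04 and -0.04, beside -0.06, -0.01 and -0.05 over all genes tested. The lists were chosen with earlier results of these data known, so the counts are a description. They moved widely with the settings in MV4-11 and SKNO-1.

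CSF1R, the M-CSF receptor, rose in all 3 lines while OCSTAMP was lower. It went from 12.6 ± 2.25 to 70.2 ± 13.0 CPM (SD, n = 3) in Molm-14, a log2 change of 2.47 (limma adjusted p 3.3e-08). The changes in MV4-11 and SKNO-1 were 1.20 and 1.06 (limma adjusted p 1.9e-04 and 2.5e-04). RANK (TNFRSF11A) was tested only in Molm-14, where its level rose from 0.485 ± 0.22 CPM to 1.36 ± 0.31 (SD, n = 3). It reached 1 CPM in the treated libraries only, so a rise was built into its passing the filter. Its log2 change of 1.53 (limma adjusted p 0.0095, and 0.027 without a filter) was 1.10 and not called without DMSO replicate 2. It had at most 24 reads in each library of the other lines. NFATC1, the transcription factor that drives both fusion genes in osteoclasts, fell by 0.52 in SKNO-1 (limma adjusted p 0.026) from 73.7 ± 2.37 to 51.4 ± 4.87 CPM (SD, n = 3). That call was lost when any SKNO-1 library other than RMC-4550 replicate 2 was left out, with changes from -0.54 to -0.46. In Molm-14 and MV4-11 NFATC1 changed by 0.07 and 0.05 without a call (limma adjusted p 0.73 and 0.89). Without the libraries over 10% mitochondrial reads its change in Molm-14 was 0.28 and was called. CTSK, the collagen-degrading protease of osteoclasts, rose by 1.26 in Molm-14 (limma adjusted p 8.1e-05) and changed by -0.03 and 0.31 in MV4-11 and SKNO-1 without a call. The SKNO-1 change was called with the replicate number as a block (limma adjusted p 0.0034), in a separate fit for the line (0.018) and after adjustment for mitochondrial share (0.28, limma adjusted p 0.018).

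Other defining osteoclast genes did not pass the filter in any line. ATP6V0D2, a proton pump subunit that also acts in fusion, had at most 1 read in each library. MMP9 had at most 6 reads and ACP5, which encodes tartrate-resistant acid phosphatase, at most 28, the latter in SKNO-1 with the drug at a mean of 0.987 CPM. IRF8, a repressor of osteoclast formation, was abundant, at 317 to 362 CPM in the DMSO means, and its log2 changes of -0.77, 0.24 and 0.00059 were not called (limma adjusted p 0.10, 0.74 and 1.0). Without the libraries over 10% mitochondrial reads the IRF8 change was -0.34 in Molm-14 and was called (limma adjusted p 2.1e-05). It was -0.40 in MV4-11, where only 1 DMSO library was left. Adjusted for mitochondrial share, the IRF8 changes were -0.25 in Molm-14 and -0.29 in MV4-11, both called (limma adjusted p 0.025 and 0.021). OCSTAMP was therefore read in libraries that held NFATC1, CTSK and CSF1R but almost no ATP6V0D2 or MMP9. RANK, ACP5 and the integrin gene ITGB3 were also under 1 CPM in the DMSO mean of each line.

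**Figure D5:**
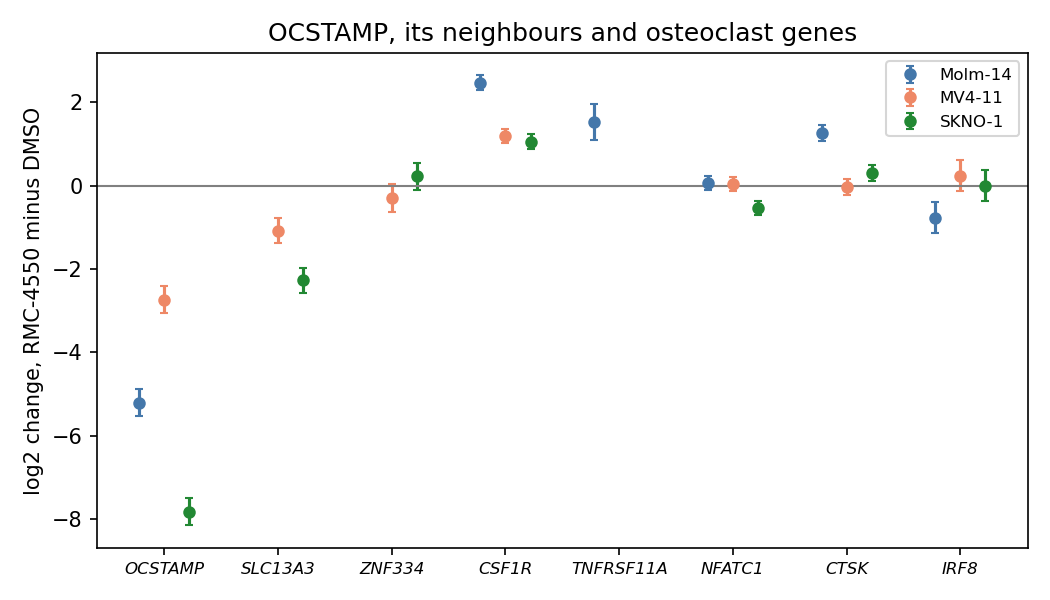
log2 change with RMC-4550 (y axis) of OCSTAMP, its 2 neighbouring genes and 5 genes of osteoclast formation (x axis), with 1 colour per line; points are differences of group means and bars are standard errors of the limma fit. Genes under the filter in a line have no point. OCSTAMP lies lowest in each line, SLC13A3 lies below 0 in MV4-11 and SKNO-1, and CSF1R lies above 0 in all 3.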

How the data were processed

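The authors deposited 1 table of log2 values for 40184 Ensembl gene IDs in 18 libraries. FastQC, STAR, limma and the build GRCh38 are named, without roles, in the submitters' processing notes, and the counter and annotation are not given in the sources used here. The labels' protocols describe oligo(dT) selection and sequencing from DNA nanoballs. From the values, each was log2 of CPM computed from reads + 0.5 and an effective library (the read total times a factor of 0.890 to 1.11). Undoing this gave whole reads (within 0.05) for 100% of values under 200 reads. CPM is recovered reads over the effective library. Symbols matched 40069 IDs.

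Genes reaching 1 CPM in 3 or more of all 18 libraries, and in 3 or more of the 6 of a line, were tested with limma 3.58.1 (R 4.3.3; lmFit, eBayes with trend, 1 coefficient per group, two-sided) on the deposited log2 values, with Benjamini-Hochberg adjustment over all genes tested per line and calls at adjusted p under 0.05. The scripts were tested on simulated data. Pooled-read ratios have exact conditional binomial intervals and single libraries exact Poisson intervals (95%). Alternatives were offsets, scaling, filters, a replicate block, a covariate and single libraries left out. Leaving out the 4 libraries over 10% mitochondrial reads and voom weights were chosen after seeing the data.

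The members and lists were chosen with earlier results of these data known. Genes to be named were the 2 members, their next genes, the 5 genes most like OCSTAMP (none could be given for DCSTAMP) and 8 core osteoclast genes. Up to 3 called genes per list, line and direction were added. The text prints only some of these called list genes, and that part was not chosen by a rule. In the main fit, p-values and standard errors measure the spread between cultures, estimated for each gene over all 6 groups together. That spread is not specific to a line. Figures were drawn with matplotlib 3.10.9.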

Additional observations from a re-analysis of the deposited data

Results flagged for a closer look

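Responses to RMC-4550 of the genes around OCSTAMP differed between lines for 26 of the 102 combinations of a gene and 2 lines that could be tested, by an interaction test in limma with adjusted p from 7.9e-04 to 0.047 over all genes. Most of these genes were named because they were called in a line. The calls were 16 of 34 between Molm-14 and MV4-11, 9 of 33 between SKNO-1 and Molm-14 and 1 of 35 between SKNO-1 and MV4-11, beside 19.5%, 10.9% and 1.66% of all genes tested. Each value is a difference of log2 changes. The interaction tests were run in the main setting only, and the 4 libraries over 10% mitochondrial reads all belong to Molm-14 and MV4-11. Some changes behind them were not stable. The CCR2 fall in Molm-14 was -0.50 and not called without RMC-4550 replicate 2 (limma adjusted p 0.15). Molm-14 minus MV4-11 gave 1.28 for CSF1R, 1.29 for CTSK, 1.95 for CD9, 1.09 for ADAM8, 0.81 for BCL6, -1.73 for CCR2, 0.49 for CLCN7, 1.14 for ID2 and 1.08 for PRDM1. The same difference was -0.43 for SIRPB1, -0.65 for SLC1A5, 0.53 for STAT6, 0.80 for TCIRG1, -0.62 for TEC, 0.59 for TFE3 and 1.06 for TYROBP. SKNO-1 minus Molm-14 gave -1.41 for CSF1R, -0.95 for CTSK, -2.59 for CD9, 1.38 for CCR2, -0.67 for CLCN7, -0.85 for PRDM1, -0.34 for RBPJ, 0.65 for SLC1A5 and -0.69 for TFE3. SKNO-1 minus MV4-11 gave -0.66 for SIRPB1. OCSTAMP and DCSTAMP were not tested this way, because they were chosen with their responses known.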

How the results depend on the processing

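OCSTAMP was lower with RMC-4550 in each line under every alternative applied to it. These were the offsets, the scalings, single libraries left out and, in Molm-14 and MV4-11, the 4 libraries left out. The replicate block leaves a difference of group means unchanged. The OCSTAMP change was not computed with other filters, the covariate, a separate fit, eBayes without a trend or voom weights. Its change on the log2(CPM + 1) scale was -2.63 for Molm-14, -2.001 for MV4-11 and -3.53 for SKNO-1. With log2(CPM + 0.1) it was -4.70 in Molm-14 and -6.41 in SKNO-1, and without the 4 libraries over 10% mitochondrial reads -2.61 in MV4-11. With single libraries left out it ran from -5.32 to -5.11, from -2.80 to -2.65 and from -8.09 to -7.30. DCSTAMP changed by 0.11, -0.06 and -1.04, and ran from -0.28 to 0.59, from -0.60 to 0.22 and from -1.31 to -0.75; with log2(CPM + 1) it was -0.12 in SKNO-1. Read depth limits both genes at the floor.

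Counts over the lists of fusion and osteoclast genes moved more. In MV4-11, 0 were called lower with median-ratio scaling, quantile normalization, no filter, a separate fit for the line or eBayes without a trend. The count without the 4 libraries is not given, because only 1 DMSO library of MV4-11 was left. Without a filter 3 were higher in MV4-11 and 7 lower in SKNO-1. With a separate fit 1 was higher in MV4-11, and 16 were higher and 23 lower in SKNO-1. With the mitochondrial share as a covariate 13 were higher and 11 lower in MV4-11, and 16 and 22 in SKNO-1. With single libraries left out, 16 to 19 were higher and 9 to 12 lower in Molm-14, 1 to 10 and 0 to 5 for MV4-11, and 5 to 8 and 5 to 7 for SKNO-1. The MV4-11 counts were 10 higher and 5 lower without DMSO replicate 2, 7 and 3 without RMC-4550 replicate 1, and 1 or 2 higher and 0 lower without any other single library of the line. The causes were not tested.

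With the replicate number as a block, 7 list genes were called lower in Molm-14, 3 higher and 1 lower in MV4-11, and 18 higher and 24 lower for SKNO-1. Same-numbered libraries correlated in their deviations from the group means between -0.40 and 0.59, and not every library correlated best with its own number, so the numbers were not taken as pairs.

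Changes of 3 genes not called in MV4-11 turned sign there. CTSK was 0.00897 with median-ratio scaling, 0.0064 with quantile normalization, 0.21 with the covariate and 0.091 without the 4 libraries. NFATC1 was -0.17 and IRF8 -0.29 with the covariate, where IRF8 was called (limma adjusted p 0.021). Without the 4 libraries NFATC1 was -0.17 and IRF8 -0.40, with only 1 DMSO library of MV4-11 left. With single libraries left out, CTSK ran from -0.24 to 0.087, NFATC1 from -0.056 to 0.22 and IRF8 from -0.045 to 0.73 in MV4-11, NFATC1 from -0.0501 to 0.28 in Molm-14 and IRF8 from -0.022 to 0.023 in SKNO-1. Of the 5 genes most like OCSTAMP, 1 was shared with Spearman correlation and 0 with log2(CPM + 1).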

Other observations

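The list of RANK and M-CSF receptors and ITAM adaptors also holds IL4R and IL13RA1, and its genes were not sorted by their effect on OCSTAMP. TYROBP, an ITAM adaptor, rose with RMC-4550 in Molm-14, from 43.2 ± 2.99 CPM to 131 ± 28.2 (SD, n = 3; log2 change 1.58, limma adjusted p 2.9e-06) and by 0.90 in SKNO-1 (limma adjusted p 0.0010). SIRPB1 fell by 0.51 in Molm-14 (limma adjusted p 2.2e-04) and by 0.75 in SKNO-1 (limma adjusted p 1.2e-05). IL13RA1 rose by 0.87 in SKNO-1 (limma adjusted p 0.0051), and IL4R fell by 0.48 in Molm-14 (limma adjusted p 0.0031). In this list 6 of 13 genes tested were higher and 3 lower in Molm-14, 2 of 14 were higher in MV4-11, and the SKNO-1 counts were 5 higher and 1 lower of 14. Over all genes, 21.5% were called higher and 25.2% lower in Molm-14, 5.85% and 8.03% in MV4-11, and 10.8% and 16.2% in SKNO-1.

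Among transcription factors, PRDM1, which represses inhibitors of osteoclast formation, rose with the drug in Molm-14, from 18.3 ± 0.68 CPM to 57.5 ± 8.72 (SD, n = 3; log2 change 1.64, limma adjusted p 4.4e-07) and by 0.79 in SKNO-1 (limma adjusted p 9.4e-04). BCL6, one of those inhibitors, rose by 0.85 in Molm-14 (limma adjusted p 8.7e-05). FOSL1 had log2 changes of -0.92 in Molm-14 and -1.43 in SKNO-1 (limma adjusted p 0.0059 and 4.0e-04). Its fall of 0.79 in MV4-11 and the PRDM1 rise of 0.56 there (limma adjusted p 0.041 and 0.019) were each lost without DMSO replicate 1 or 3 or RMC-4550 replicate 2 or 3, with FOSL1 changes from -0.74 to -0.60 and PRDM1 changes from 0.43 to 0.54. Both calls were also lost in a separate fit for the line. The FOSL1 call there was lost as well with median-ratio scaling, quantile normalization, no filter or eBayes without a trend. Among fusion genes, CD9, a tetraspanin, went from 0.374 ± 0.14 CPM to 1.35 ± 0.067 in Molm-14 (SD, n = 3; log2 change 1.84, limma adjusted p 1.4e-04), and reached 1 CPM there in treated libraries only, so that a rise was built into its passing the filter. Without a filter the limma adjusted p was 2.4e-04. CCL2, a chemokine, went from 3.43 ± 0.63 CPM to 0.262 ± 0.070 in SKNO-1 (SD, n = 3; log2 change -3.61, limma adjusted p 2.5e-04), and reached 1 CPM in DMSO libraries only, so that a fall was built in. Without a filter the limma adjusted p was 7.8e-04. Carbonic anhydrase 2 (CA2), which supplies protons for bone resorption, had 10.1 ± 1.23 CPM with DMSO and 2.35 ± 0.31 with RMC-4550 in Molm-14 (SD, n = 3; log2 change -2.09, limma adjusted p 0.0020). Other bone resorption genes went the other way in Molm-14, where 6 of the 11 tested were higher and 3 lower. TCIRG1 rose there by 0.71 and PLEKHM1 by 0.59 (limma adjusted p 0.0061 and 0.0025).

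In the other lists, beside the same shares over all genes, the tested fusion genes were 2 higher and 5 lower of 11 in Molm-14, 2 higher and 0 lower of 11 in MV4-11, and 1 higher and 2 lower of 14 in SKNO-1. The osteoclast transcription factors were 5 higher and 1 lower of 15, 1 and 1 of 15, and 2 and 5 of 14 in the same order of lines. The repressors were 2 higher and 0 lower of 5, 0 and 0 of 5, and 1 and 2 of 5. The bone resorption genes were 6 higher and 3 lower of 11, 0 and 1 of 11, and 0 and 1 of 10. Because the lists were chosen with earlier results of these data known, the counts of all 5 lists are descriptions.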
